A study of Mus musculus with 6 samples.

Results

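Rab proteins are small GTPases that give each membrane compartment of a cell its identity. A Rab bound to GTP sits on a membrane and recruits effectors such as tethers, motors and sorting coats. Exchange factors load it with GTP, GTPase-activating proteins switch it off, and dissociation inhibitors carry the inactive, prenylated form through the cytosol. In macrophages these proteins order the steps from uptake through early and late endosomes to the lysosome, and they direct recycling and secretion. The genes described here are the rows of the expression table whose symbol is Rab followed by a number and at most a letter and a further digit. There were 58 of them among 15824 genes, or 0.367% of the table. Genes of Rab regulators and effectors carry other symbols and are given separately.

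RNA was sequenced from cells labelled as alveolar macrophages, the resident macrophages of the airspaces. These cells had been sorted by flow cytometry from lungs of mice aged 8 weeks. The wild-type group (WT) and the Men1 knockout group (KO) held 3 libraries each, and the design text asks which genes depend on Men1 in macrophages. Men1 encodes menin, a nuclear scaffold protein of chromatin complexes. Of the mouse lines the labels name only the genotypes. The strain, the sex, the allele and any Cre driver were not given in the sources used here. No label ties each library to its own mouse, so p-values measure the spread between these libraries, which may be technical.

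Each library held 19955232 to 20151985 rounded read counts, of which Rab genes took 0.522% to 0.534%. Men1 was counted 639, 594 and 603 times in the WT libraries and 150, 149 and 165 times in the KO libraries. This is a fall from 29.98 ± 1.20 to 7.88 ± 0.458 CPM (counts scaled to a fixed library size; SD, n = 3 per group), with a log2 fold change of -1.93 and a standard error (SE) of 0.0684. Adjusted p-values for counts come from the quasi-likelihood test of edgeR, adjusted by Benjamini-Hochberg over 11817 tested genes, and that of Men1 was 7.24e-24. Of 13 alveolar macrophage markers in the table, 9 were tested, of which 4 rose and 4 fell. Their summed level was 492 to 506 CPM in WT and 1421 to 1459 CPM in KO, and most of the difference came from Marco, a scavenger receptor (172 and 1137 CPM). Siglecf, a surface marker of alveolar macrophages, had 2.06 CPM in the WT and 1.34 CPM in the KO group. Ear1, Ear2, Plet1 and Fabp1 had at most 4 counts in any library, and Car4, Krt79 and Cidec matched none of the 15824 gene symbols. Marco, Atp6v0d2, Mrc1, Itgax and Fabp4 had group means of 29.4 CPM or more. The listed markers thus bore out the label of alveolar macrophages only in part. General macrophage markers were abundant in every library, at 27858 to 29003 CPM in WT and 32842 to 33617 CPM in KO, and 7 of 9 rose and 0 fell. Among them Csf1r, the receptor that macrophages need to survive, rose 1.91-fold and Adgre1, which encodes F4/80, rose 2.55-fold.

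Other lists moved with the genotype as well. All 12 proliferation markers fell, from a sum of 1009 to 1013 CPM to one of 409 to 414 CPM. All 13 tested of 16 markers of fibroblasts, smooth muscle and mesothelium fell, from 114 to 115 CPM to 19.03 to 21.9 CPM. The untested members had few counts. Msln had 0, 0 and 1 in WT and was at 0 in KO. Thy1 had 0, 3 and 0 in WT and 3, 1 and 0 in KO. Fbln1 had 5, 5 and 8 in WT and 2, 0 and 0 in KO. Of 5 tested neutrophil markers 4 rose and 1 fell: their sum was 851 to 869 CPM in WT and 685 to 706 CPM in KO and was mostly Mmp8 (800 and 558 CPM), while Csf3r rose 3.21-fold and S100a8 1.87-fold. T and NK cell markers summed to 2.44 to 2.90 CPM in WT and 11.3 to 11.5 CPM in KO, mostly Cd4 (1.65 and 7.45 CPM) and Klrb1c, while Cd3d, Cd3e, Cd3g and Cd8a had at most 6 counts in any library. Of 5 tested endothelial markers 2 rose and 2 fell, with sums of 77.6 to 80.6 CPM in WT and 65.8 to 68.4 CPM in KO that are mostly Vwf. Of 4 tested dendritic cell markers 2 rose and 2 fell, with sums of 14.8 to 16.5 CPM and 23.5 to 25.2 CPM that are mostly Ccr7. B cell markers summed to 26.9 to 28.7 CPM and 34.9 to 36.8 CPM, nearly all Cd22 and Cd79b. Mast cell and basophil markers summed to 6.92 to 8.01 CPM and 3.83 to 4.52 CPM, mostly Kit (6.55 and 3.28 CPM), the only tested member. The untested Cpa3 had 0.392 and 0.373 CPM and Mcpt8 0.277 and 0.373 CPM. The sums of epithelial markers overlapped between groups at up to 6.09 CPM. Of 15 listed epithelial markers 8 were in the table and 2 were tested: Cdh1 fell 2.26-fold and Hopx rose 1.33-fold. The part of these lists in the Rab results was not tested. The 4 Y-linked genes summed to 162 to 169 CPM in WT and to at most 0.102 CPM in KO. The labels give no sex, so for every difference between KO and WT, sex and genotype cannot be told apart. Among the Rab genes, Rab9, Rab33a and Rab39b lie on chromosome X.

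The Rab5 genes act at the first endosomal step and differed in direction (Rab5b and Rab5c rose, Rab5a fell), so the 250 bases upstream of their transcription starts are shown. They come from RefSeq on GRCm38.p6 and read 5′ to 3′ on the strand of the gene. Capitals mark CCAAT on either strand (CCAAT or ATTGG) and TCACGTGA, the core of the CLEAR element of lysosomal genes.
Rab5a, chr17:53478984-53479233, plus strand: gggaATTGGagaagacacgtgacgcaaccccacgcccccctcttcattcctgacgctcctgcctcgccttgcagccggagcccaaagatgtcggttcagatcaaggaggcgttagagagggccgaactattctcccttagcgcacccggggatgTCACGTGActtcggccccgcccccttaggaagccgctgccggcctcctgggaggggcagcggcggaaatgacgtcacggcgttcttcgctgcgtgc
Rab5b, chr10:128696269-128696518, minus strand: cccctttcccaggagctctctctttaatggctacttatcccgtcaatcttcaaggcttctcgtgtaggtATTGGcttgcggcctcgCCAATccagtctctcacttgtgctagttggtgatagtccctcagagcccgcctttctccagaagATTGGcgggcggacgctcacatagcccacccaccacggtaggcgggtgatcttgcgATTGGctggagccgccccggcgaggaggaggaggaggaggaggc
Rab5c, chr11:100738216-100738465, minus strand: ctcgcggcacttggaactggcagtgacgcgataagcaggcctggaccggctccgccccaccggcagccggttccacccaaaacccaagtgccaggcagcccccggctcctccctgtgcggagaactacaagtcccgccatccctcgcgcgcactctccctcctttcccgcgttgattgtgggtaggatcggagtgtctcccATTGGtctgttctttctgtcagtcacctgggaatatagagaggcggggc

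CCAAT occurred 4 times in the Rab5b window and 1 time in each of the Rab5a and Rab5c windows. RefSeq windows were matched for 47 Rab genes, of which 39 were tested for expression. On either strand, CCAAT was in a window of 21 of these 39 genes (53.8%), against 40.9% of 9458 tested genes with a window. TCACGTGA was in windows of Rab5a and Rab21, or 5.1% of the 39, against 1.8% of the tested genes. The E-box CACGTG, which TCACGTGA contains, was in 12.8% against 10.1%, and GGAAGT, a core of ETS factor sites, in 25.6% against 27.9%. The CRE sequence TGACGTCA was in the Rab5a window alone among the 39, or 2.6% against 3.0%. The AP-1 sequence TGANTCA was found in 5.1% against 5.6%. These are matches of letters, not measured sites, and the shares of Rab genes rest on few genes.

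Most Rab genes differed between the genotypes, in both directions and by small amounts. Of the 58 genes, 48 passed the filter on low counts, and 36 of these 48 (75.0%) passed the test at an adjusted p under 0.05, when 69.2% of all tested genes did. The KO level was higher for 22 (34.4% of all tested genes) and lower for 14 (34.9%). The median log2 fold change was 0.06 for the tested Rab genes and 0.00 for all tested genes, and the median size of the change was 0.31 and 0.24. The Rab median was 0.0011 with no scaling beyond total counts and -0.063 on the log2(TPM + 1) scale, so its direction depended on the scaling. The median of all tested genes moved too, to -0.056 and -0.12 in these 2 settings, and stayed below the Rab median. The change reached 1.5-fold or more for 7 Rab genes, at a background of 17.8%. Rab4a, Rab27b, Rab36, Rab37 and Rab43 rose by that much, and Rab7b and Rab15 fell. KO and WT libraries did not overlap in CPM for 39 Rab genes, 24 above and 15 below, at a background of 71.2%. The split by direction depended on the scaling, for Rab genes and for all tested genes. In the main fit 61.1% of Rab calls and 49.6% of all calls were higher. With no scaling beyond total counts, 19 Rab genes were higher and 17 lower (52.8% of Rab calls and 41.3% of all calls higher). Limma on log2(FPKM + 1) called 19 higher and 16 lower (54.3% and 40.8%). TPM are transcript shares corrected for gene length. On a log2 scale of TPM + 1, limma called 16 higher and 22 lower (42.1% and 29.9%). The median of all tested genes lay at -0.12 on that scale. In another setting the biological coefficient of variation was set to 0.1 instead of its estimate of 1.66%. That setting used edgeR's likelihood-ratio test in place of the quasi-likelihood test. There 22 Rab genes passed, 15 higher and 7 lower, against 37.3% of all tested genes. In bulk RNA, fewer cells of a type and less RNA per cell cannot be told apart.

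**Figure D1:**
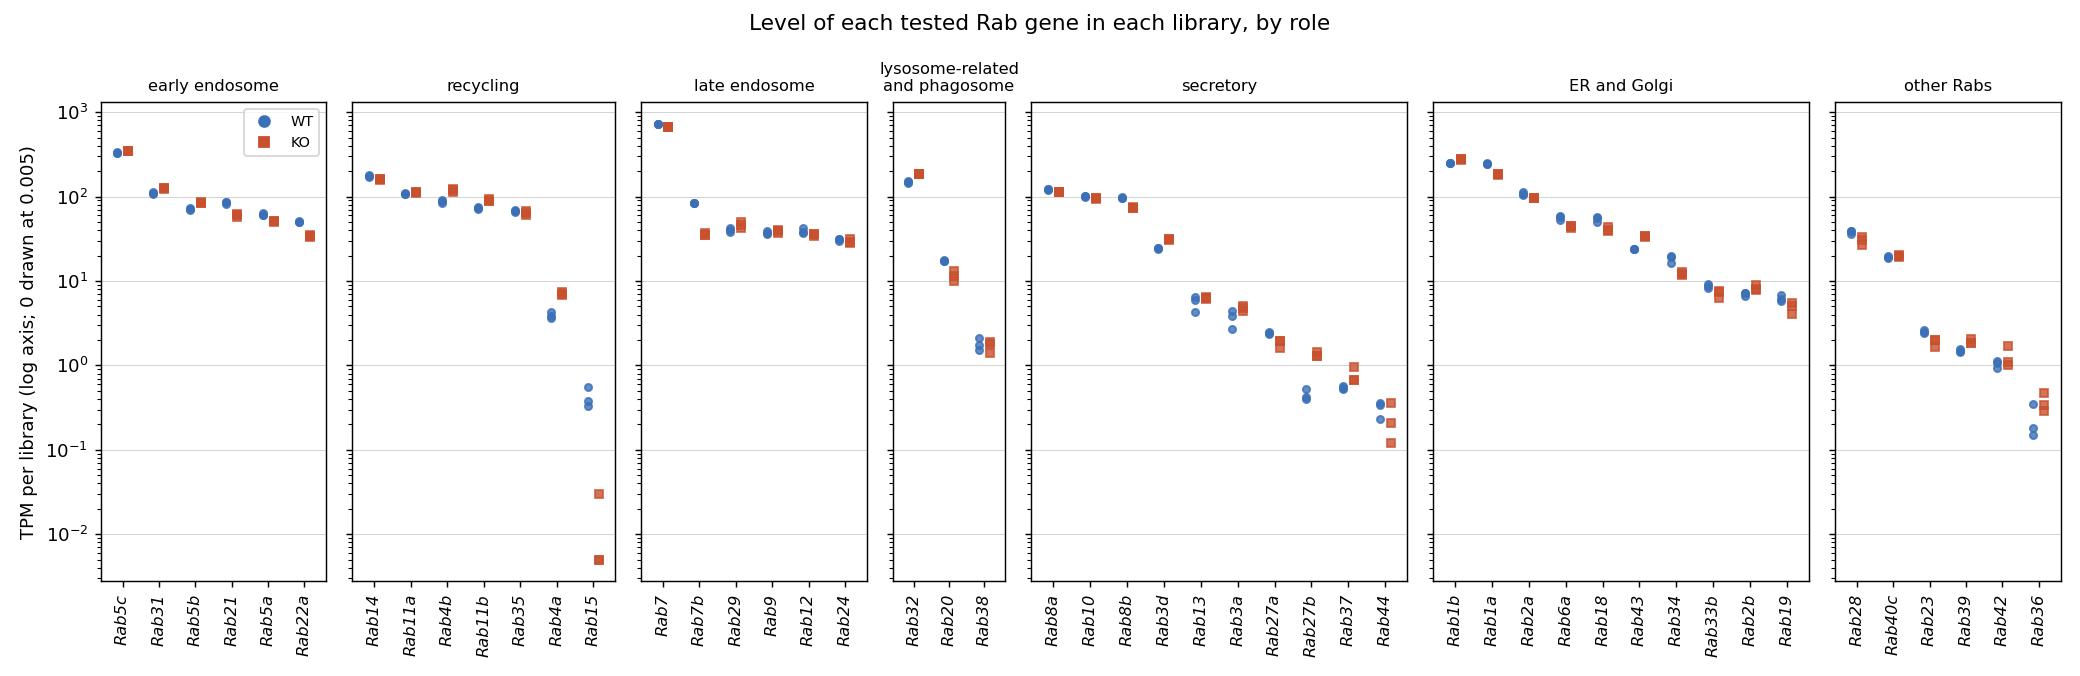
TPM of the 48 tested Rab genes in each WT (circles) and KO (squares) library on a log axis, grouped by role and ordered by level; a TPM of 0, present only for Rab15 in KO, is drawn at the bottom. Rab7 is the most abundant Rab gene in all 6 libraries, and the changes between groups are small beside the range between genes.

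Levels per length were spread over a wide range. A mean above 100 TPM was reached by 11 Rab genes, and Rab7 alone made up 19.6% to 20.7% of the summed Rab TPM in each library. Rab7 was followed by Rab5c, Rab1b and Rab1a. The plot of TPM by role shows these levels in each library.

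The early endosome Rabs control fusion of incoming vesicles and their first sorting. All 6 tested members passed the test, 3 higher and 3 lower, when 69.2% of all tested genes passed. Their median log2 fold change was 0.04. At a biological coefficient of variation of 0.1, the calls of Rab5c (edgeR likelihood-ratio test, adjusted p = 0.165) and Rab5a (0.404) were lost. Rab5c, the most abundant of the 3 Rab5 genes, had 7486, 7693 and 7476 counts in WT and 8421, 8318 and 8408 in KO. Every KO library stood above every WT library, with a rise from 369.9 ± 7.08 to 427 ± 1.77 CPM (log2 fold change 0.21, SE 0.0208, edgeR adjusted p = 5.9e-11). Rab31, a Rab5 relative of endosome and trans-Golgi transport, was counted 4995, 4825 and 5002 times in WT and 5962, 5952 and 5766 times in KO. The groups did not overlap, and the level rose from 242 ± 4.34 to 300.1 ± 5.58 CPM (log2 fold change 0.31, SE 0.0231, edgeR adjusted p = 2.32e-14). Rab5b rose from 142 ± 3.85 to 185 ± 2.36 CPM, a log2 change of 0.39. In contrast Rab5a fell from 86.9 ± 2.78 to 79.2 ± 1.70 CPM, a log2 change of -0.13. The reads of Rab5a are uncertain to the extent that its exons overlap Pp2d1 on the opposite strand, since strand use in counting was not given in the sources used here. Rab21 and Rab22a, which act on early endosomes and in macropinocytosis, fell by 0.35 and 0.41 on the log2 scale. For these 2 genes every KO library was below every WT library, at 68.5 ± 2.30 against 87.4 ± 2.52 CPM for Rab21 and 41.5 ± 0.723 against 55.2 ± 1.44 CPM for Rab22a.

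Recycling Rabs return receptors and membrane from endosomes to the cell surface. Of 9 members 7 were tested, of which 4 rose, 1 fell and 2 did not pass (71.4% called, against 69.2% of all tested genes). Their median log2 fold change was 0.18. This median was 0.035 on the TPM scale, 0.12 with no scaling and 0.27 at a mean count of at least 50. Rab14, which serves endosome, Golgi and phagosome traffic, had 6990, 6818 and 6768 counts in WT and 6598, 6752 and 6705 in KO. It did not pass (log2 fold change 0.02, edgeR adjusted p = 0.447). Rab11a, a Rab of the perinuclear recycling endosome, had 3150, 3070 and 3117 counts in WT and 3427, 3303 and 3413 in KO. All KO values were above WT, with a rise from 153 ± 1.91 to 172 ± 2.99 CPM (log2 fold change 0.18, SE 0.0258, edgeR adjusted p = 2.44e-07); on the TPM scale this call was lost (limma adjusted p = 0.201). Its relative Rab11b rose by 0.38 on the log2 scale. Rab4a, a Rab of the fast route back from early endosomes, lies on chromosome 8 at 123805846 to 123835291. It had 55, 59 and 67 counts in WT and 112, 122 and 117 in KO. The lowest KO library was well above the highest WT library, and the level rose from 2.95 ± 0.288 to 5.96 ± 0.274 CPM (2.01-fold, log2 SE 0.127, edgeR adjusted p = 9.61e-09). Rab4b rose 1.48-fold, from 51.7 ± 2.72 to 76.5 ± 3.75 CPM, but its exons overlap those of Gm21983 on the same strand, so its reads are uncertain. Rab15, a Rab of the recycling compartment on chromosome 12 at 76797960 to 76822759, had 12, 15 and 21 counts in WT and 1, 0 and 0 in KO. The WT level was 46.2 times the KO level, with a 95% counting interval of 7.90 to 1861, and the edgeR adjusted p was 3.64e-08. Rab35, a plasma membrane Rab, did not pass (log2 fold change 0.06) but did without KO replicate 1 (edgeR adjusted p = 0.0119). Among the 2 untested members, Rab17 had 0 counts in every WT library and 4, 7 and 6 in KO, at least 5.89-fold higher against a floor of 3 counts over the WT group. With the counting error of both groups, the 95% interval allows a WT level of up to 0.233 times the KO level. Rab25 had at most 1 count in any library.

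Late endosome Rabs drive maturation and the transport of endosomes to lysosomes. Of 6 tested members, 2 rose, 1 fell and 3 did not pass (50% called, against 69.2% of all tested genes). The median log2 fold change was 0.04. Rab7, the defining Rab of the late endosome, had 18958, 18983 and 19119 counts in WT and 18536, 18471 and 18714 in KO. Its WT level of 932 ± 1.28 CPM and KO level of 946 ± 6.61 CPM did not pass the test (log2 fold change 0.02, SE 0.0173, edgeR adjusted p = 0.262). Exons of Rab7 overlap Gm5577 on the opposite strand, so its reads are uncertain to that extent. On the log2(TPM + 1) scale Rab7 had the opposite sign, -0.12 (limma adjusted p = 0.000152), which is the shift of the median gene on that scale. Rab7b, a related Rab of transport from endosomes and lysosomes to the trans-Golgi network, lies on chromosome 1 at 131688681 to 131715443. It had 4851, 4977 and 4987 counts in WT and 2320, 2199 and 2180 in KO. The KO libraries lay far below the WT libraries, and the level fell from 242 ± 3.42 to 114 ± 3.55 CPM (2.13-fold lower, log2 SE 0.0267, edgeR adjusted p = 8.47e-29). Rab7b had the smallest p of the tested Rab genes. Rab29, a Rab tied to lysosome and trans-Golgi traffic, rose by 0.31 and Rab9, which acts in retrieval from late endosomes to the Golgi, by 0.18 on the log2 scale. The Rab9 call was lost on the TPM scale (limma adjusted p = 0.474). Rab12 and Rab24, which act in degradation and autophagy, did not pass (log2 fold changes 0.01 and 0.06). Exons of Rab24 overlap Prelid1 on the opposite strand.

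Of the 3 Rabs of lysosome-related organelles and phagosomes, 1 rose, 1 fell and 1 did not pass (66.7% called, against 69.2% of all tested genes). Rab32, which serves lysosome-related organelles and defence against vacuolar bacteria, had 3677, 3681 and 3578 counts in WT and 4843, 4725 and 4778 in KO. All KO libraries were above all WT libraries, with a rise from 179 ± 3.57 to 243.5 ± 2.22 CPM (1.36-fold, log2 SE 0.0242, edgeR adjusted p = 2.52e-18). Rab20, a Rab of phagosome maturation, had 269, 283 and 275 counts in WT and 221, 191 and 170 in KO. The KO libraries were lower and more spread, at 9.88 ± 1.28 against 13.5 ± 0.362 CPM (1.37-fold lower, log2 SE 0.0831, edgeR adjusted p = 1.21e-05). Rab38, the close relative of Rab32, had 27 to 37 counts in WT and 26 to 35 in KO and did not pass.

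**Figure D2:**
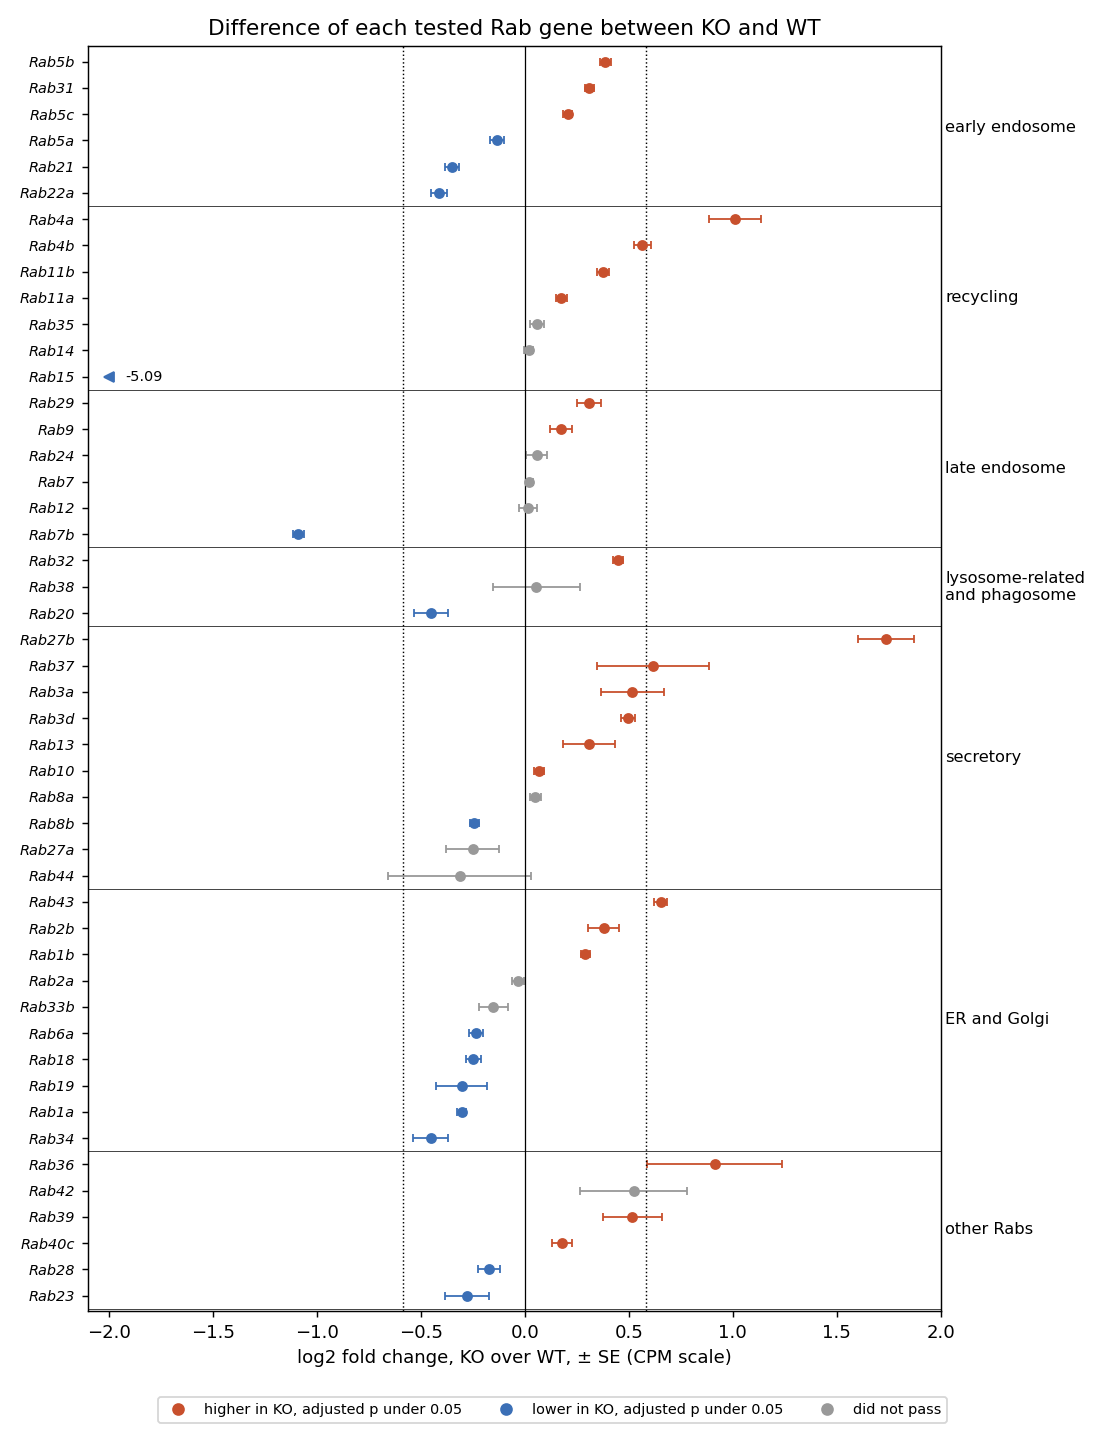
Log2 fold change (KO over WT) with its SE for the 48 tested Rab genes by role, with dotted lines at 1.5-fold in each direction; colours mark genes that passed the test as higher or lower and grey those that did not. Each role holds genes on both sides of 0, and the fitted value of Rab15, which lies beyond the axis and depends on the prior count, is written beside an arrow.

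Secretory Rabs bring vesicles and granules to the plasma membrane. Of 13 members 10 were tested, of which 6 rose, 1 fell and 3 did not pass (70% called, against 69.2% of all tested genes). The median log2 fold change was 0.19. The count of 6 was fragile, since it was 3 without WT replicate 2 and 5 without any other library, and 3 with no scaling beyond total counts. The median was 0.11 without WT replicate 2 and 0.043 on the TPM scale. Rab8a, a Rab of exocytosis and tubular recycling, had 2871, 2929 and 2928 counts in WT and 2916, 2886 and 2892 in KO and did not pass (log2 fold change 0.05, edgeR adjusted p = 0.0847). Rab8b had 6131, 6030 and 6058 counts in WT and 4931, 5000 and 4893 in KO. The groups were far apart, and Rab8b fell from 297.5 ± 2.93 to 252 ± 3.30 CPM, by 0.24 on the log2 scale (edgeR adjusted p = 7.23e-12). Rab10, a Rab of the Golgi and plasma membrane route, had 4580, 4596 and 4527 counts in WT and 4648, 4638 and 4523 in KO. These counts overlapped, and the CPM values of 224 ± 2.67 and 234 ± 3.50 gave a log2 fold change of 0.07 (edgeR adjusted p = 0.0114) that turned to -0.072 on the TPM scale. Rab3d, a Rab of regulated exocytosis, rose from 59.2 ± 0.930 to 83.6 ± 1.96 CPM, a log2 change of 0.50. Rab27b, a Rab of granule and exosome release on chromosome 18, had 38, 51 and 40 counts in WT and 148, 133 and 133 in KO. KO libraries were all far above WT, and the level rose from 2.11 ± 0.348 to 7.03 ± 0.420 CPM (3.33-fold, log2 SE 0.135, edgeR adjusted p = 8.11e-14). Its relative Rab27a, which tethers granules in leukocytes, had 93 to 96 counts in WT and 67 to 81 in KO and did not pass (log2 fold change -0.25, edgeR adjusted p = 0.0781). The groups did not overlap in CPM, and Rab27a passed as lower with no scaling (edgeR adjusted p = 0.0310) and on the FPKM and TPM scales (limma adjusted p = 0.0148 for FPKM + 1 and 0.00458 for TPM + 1). A pseudogene, Gm27186, overlaps its exons.

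The other secretory Rabs rested on few reads. Rab37, a Rab of secretory granules on chromosome 11 at 115091331 to 115162773, had 15, 15 and 14 counts in WT and 19, 27 and 19 in KO. It rose 1.53-fold (log2 SE 0.270, edgeR adjusted p = 0.0421), and KO replicate 2 was the highest. The call was lost without WT replicate 1 (edgeR adjusted p = 0.0744), WT replicate 2 (0.0739), WT replicate 3 (0.0970) or KO replicate 2 (0.232). Rab3a, a Rab of synaptic and other regulated vesicles, rose by 0.52 on the log2 scale, and the call was lost without WT replicate 2 (edgeR adjusted p = 0.0511). Its exons overlap Mpv17l2 on the opposite strand. Rab13, a Rab of junctional and surface delivery, rose by 0.31, and the call was lost without WT replicate 2 (edgeR adjusted p = 0.278), KO replicate 1 (0.0678) or KO replicate 3 (0.0625). Rab44, a large Rab of haematopoietic cells, had 11 to 17 counts in WT and 6 to 18 in KO and did not pass. Rab26, Rab3b and Rab3c had at most 2 counts in any library and were not tested.

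ER and Golgi Rabs act in the early secretory pathway and in transport within the Golgi. Of 12 members 10 were tested, of which 3 rose, 5 fell and 2 did not pass (80% called, against 69.2% of all tested genes). The median log2 fold change of -0.19 was the lowest among the 7 roles. On the TPM scale it was -0.29, and the early and late endosome medians were then also negative (-0.10 and -0.086). Rab1b, which acts between ER and Golgi, had 5337, 5262 and 5390 counts in WT and 6318, 6254 and 6240 in KO. The level rose without overlap from 261 ± 2.26 to 319 ± 1.39 CPM (1.22-fold, log2 SE 0.0217, edgeR adjusted p = 2.65e-14). Rab1a, its near relative at the same step, had 8992, 8785 and 8878 counts in WT and 6867, 6921 and 6997 in KO. It fell without overlap from 435 ± 5.22 to 353 ± 4.01 CPM (1.23-fold lower, log2 SE 0.0207, edgeR adjusted p = 2.09e-15). Rab43, a Golgi Rab on chromosome 6 at 87788853 to 87812164, had 1407, 1406 and 1443 counts in WT and 2175, 2165 and 2104 in KO. Each KO library was above each WT library, and the level rose from 69.5 ± 0.753 to 109 ± 1.91 CPM (1.57-fold, log2 SE 0.0315, edgeR adjusted p = 7.96e-20). Exons of Rab43 overlap Gm45140 on the same strand, so its reads are uncertain. Rab2b rose by 0.38 on the log2 scale, while Rab2a, the more abundant of the Rab2 genes, did not pass (-0.03) but was lower with no scaling (edgeR adjusted p = 0.00784) and on the TPM scale (limma adjusted p = 0.00229). Rab6a, which acts within the Golgi, fell by 0.23, Rab18, a lipid droplet and ER Rab, by 0.25, and Rab34, a Golgi and ciliary Rab, by 0.45. Reads of Rab6a, Rab2b and Rab18 are uncertain, since exons overlap Mrpl48 and Tox4 on the opposite strand and AC131796.2 on the same strand. Rab19 fell by 0.30, but the call was lost without WT replicate 1 (edgeR adjusted p = 0.0915), WT replicate 2 (0.103) or KO replicate 2 (0.197). Rab33b, a Golgi and autophagy Rab, just missed the threshold (log2 fold change -0.15, edgeR adjusted p = 0.0515), and passed without WT replicate 3 (0.0275) or KO replicate 2 (0.0191). Rab30 and Rab6b had at most 8 counts in any library and were not tested.

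The remaining 9 members have other or less settled roles, and 6 of them were tested. Of these, 3 rose, 2 fell and 1 did not pass (83.3% called, against 69.2% of all tested genes). Rab28, a Rab best known from photoreceptors, had 627, 630 and 617 counts in WT and 574, 528 and 499 in KO. It fell by 0.17 on the log2 scale (SE 0.0520, edgeR adjusted p = 0.00409), a call lost without KO replicate 3 (0.0555). Rab40c, which carries a ubiquitin ligase box, had 567, 590 and 606 counts in WT and 621, 655 and 642 in KO, a rise of 0.18 (SE 0.0485, edgeR adjusted p = 0.00156) that was lost on the TPM scale (limma adjusted p = 0.433). Rab36, a Golgi-associated Rab on chromosome 10 at 75036895 to 75054748, had 8, 7 and 13 counts in WT and 21, 14 and 16 in KO. Its rise of 1.88-fold (log2 SE 0.326, edgeR adjusted p = 0.0133) was lost without WT replicate 1 (0.0503), WT replicate 2 (0.0697) or KO replicate 1 (0.0822). Rab39 rose by 0.52 on the log2 scale. Rab23, a Rab of Hedgehog signalling and cilia, fell by 0.28, a call lost without WT replicate 2 (edgeR adjusted p = 0.0693) or KO replicate 1 (0.139). Rab42 did not pass (log2 fold change 0.52, edgeR adjusted p = 0.0696), but passed without WT replicate 2 (0.0320) or KO replicate 1 (0.0160). Of the 3 untested members, Rab33a had 6, 6 and 10 counts in WT and 1 in each KO library, a WT to KO ratio of 7.05 with a 95% counting interval of 2.12 to 36.8. Rab40b had 0 counts in WT and 2, 1 and 2 in KO, and Rab39b had 1, 0 and 0 in WT and 4, 3 and 1 in KO.

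**Figure D3:**
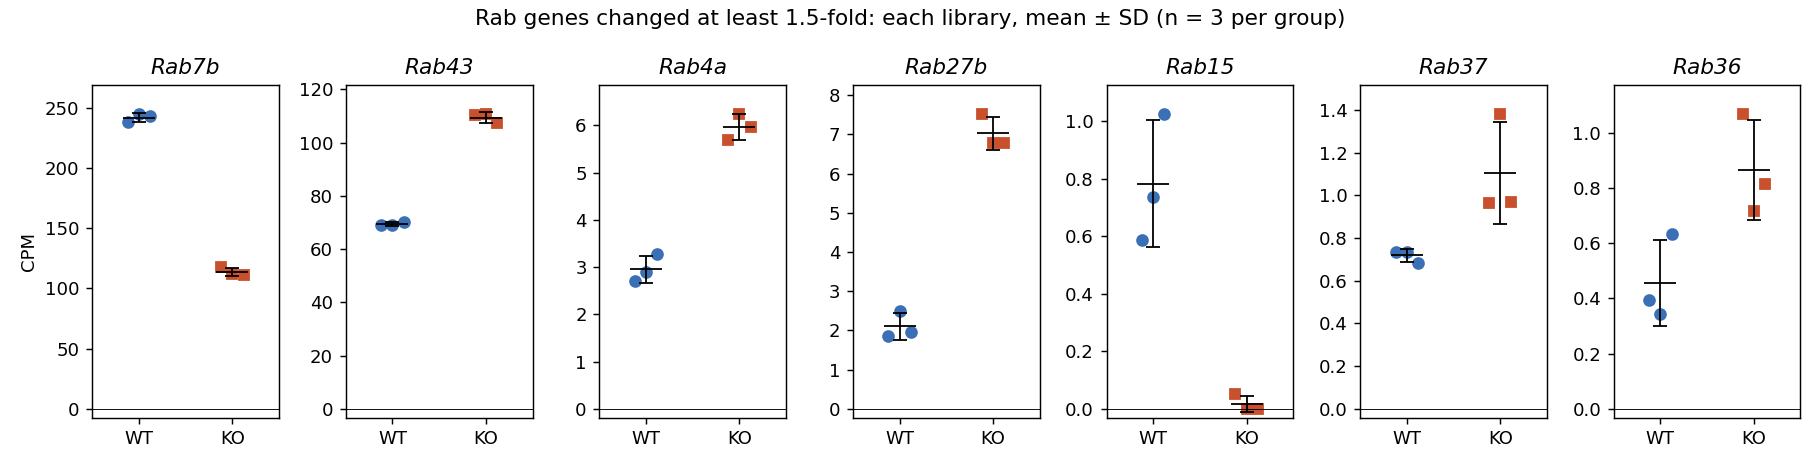
CPM in each library, with mean and SD (n = 3 per group), of the 7 Rab genes that changed at least 1.5-fold, each on its own axis. Rab7b is the only gene of the 7 besides Rab15 that is lower in KO, and the axes of Rab15, Rab36 and Rab37 span few counts.

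Genes that share a Rab number encode close relatives, and the share of each within its family was compared for 9 chosen families. The Rab3, Rab33, Rab39 and Rab40 genes also share a number but were not compared. Shares were computed from TPM within each of 9 families, so a shift common to all genes on that scale leaves them as they are. Rab1a made up 50.1%, 49.96% and 49.6% of the Rab1 TPM in WT and 39.3%, 39.8% and 40.1% in KO. The remainder was Rab1b, so the WT libraries held near equal levels of the pair and the KO libraries did not. Rab27b made up 13.9%, 18.1% and 15% of the Rab27 TPM in WT and 42.6%, 39.8% and 44.4% in KO, at a low level of 1.34 TPM in KO. Rab7b took 10.3% ± 0.130 of the Rab7 TPM in WT and 5.05% ± 0.171 in KO (SD, n = 3 per group). Rab8b stood at 44.2% ± 0.432 in WT and 39.3% ± 0.354 in KO, and Rab11b at 40.1% ± 0.820 and 44.5% ± 1.02. Within Rab5, Rab5a stood at 13.2% in WT and 10.5% in KO and Rab5b at 15.2% and 17.3%, while Rab5c stood at 71.6% and 72.2%. Rab4a took 4.22% ± 0.322 in WT and 5.66% ± 0.190 in KO. Groups did not overlap for Rab1a, Rab2a, Rab4a, Rab5a, Rab7b, Rab8b, Rab11b and Rab27b, with a two-sided exact permutation p of 0.10 each, the smallest that 3 against 3 libraries allow (Benjamini-Hochberg over 9 families, 0.1125), so no family could pass a threshold of 0.05. The share of Rab6b, near 0.1% in both groups, overlapped (exact permutation p = 0.8). Groups did not overlap in CPM for 71.2% of all tested genes either, and no background was computed for shares within families.

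**Figure D4:**
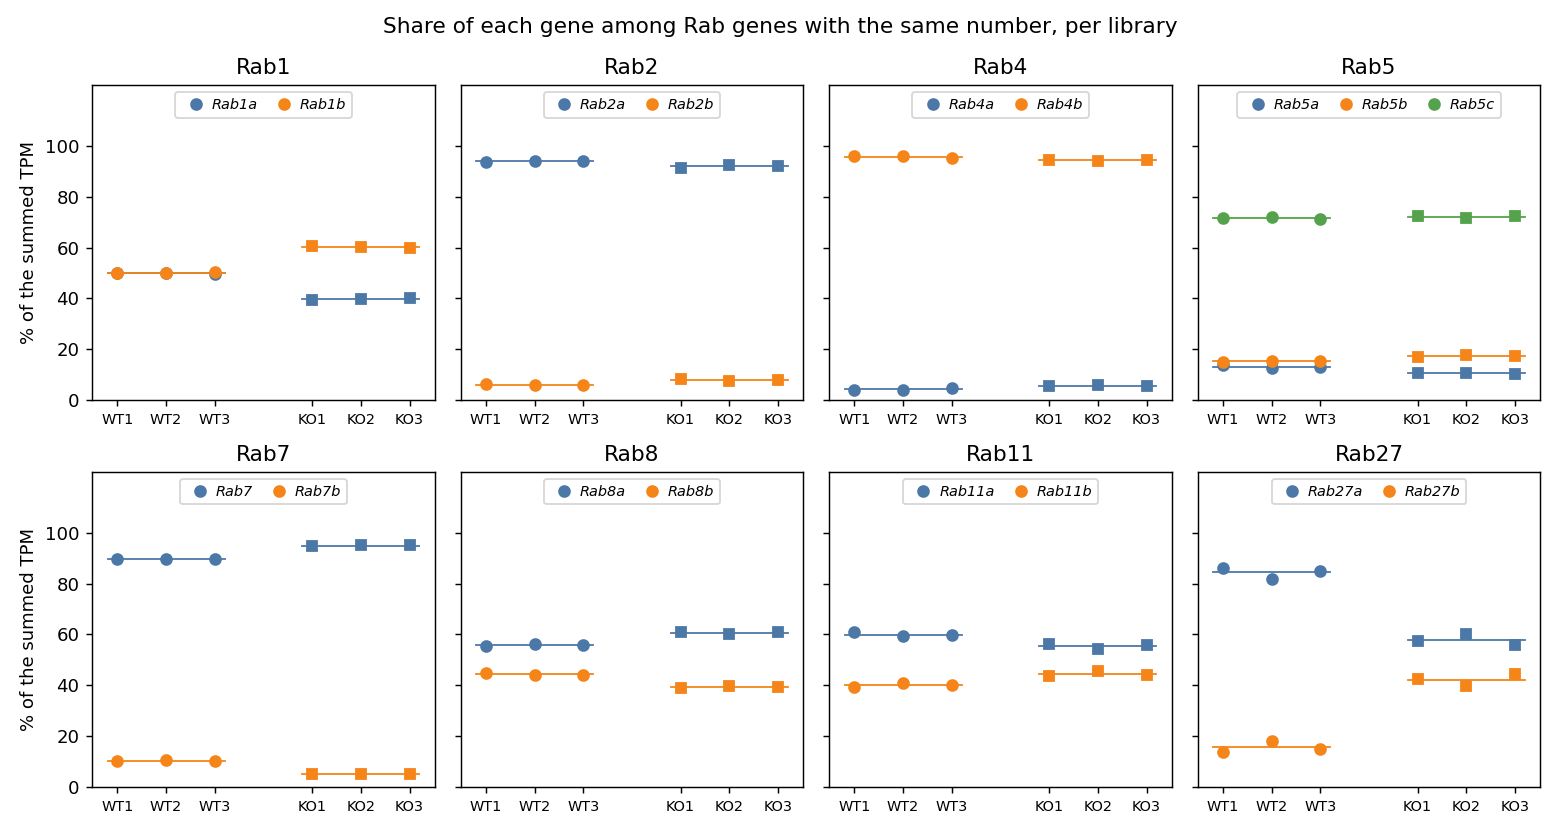
Percent of the summed TPM that each gene takes among Rab genes with the same number, for 8 of the 9 families compared. Each WT (circles) and KO (squares) library is shown, with a line at each group mean. The Rab6 family is left out. Rab1a and Rab1b coincide near 50% in WT and separate to about 40% and 60% in KO, and Rab27b moves from 15.7% to 42.2%.

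Summed by role, the Rab TPM was 3565 ± 30.1 in WT and 3410 ± 21.1 in KO (SD, n = 3 per group), with no overlap. On the same scale the median of all tested genes was also lower in KO (-0.12 in log2), and the Rab share of counts overlapped between the groups. As a share of this sum, the recycling Rabs took 14.6% in WT and 16.2% in KO, and the lysosome-related and phagosome Rabs 4.72% and 5.79%. Late endosome Rabs took 27.04% and 25.2%, where Rab7 and Rab7b fill most of the sum. ER and Golgi Rabs took 21.9% and 20.8%, early endosome Rabs 19.96% and 20.6%, and secretory Rabs 10.01% and 9.72%. No difference between roles was tested.

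Regulators of Rab proteins passed the test at shares near the 69.2% of all tested genes. Of 35 tested exchange factors, 16 rose and 8 fell (68.6% called, median log2 fold change 0.07). Rab3il1, an exchange factor of the Rabin family, rose from 86.6 ± 2.31 to 159 ± 2.43 CPM (1.84-fold, edgeR adjusted p = 8.09e-25). Sbf2 and Dennd1a, which carry DENN domains, rose 1.42-fold and 1.48-fold. Of 40 tested GTPase-activating proteins and their subunits, 13 rose and 14 fell (67.5%, median -0.07). Tbc1d13, which acts on Rab35, rose 1.48-fold and Tbc1d8 rose 2.21-fold, from 11.6 ± 0.461 to 25.7 ± 0.376 CPM (edgeR adjusted p = 4.15e-18). Rab3gap2, a subunit of the complex that acts on Rab3 and Rab18, was 1.40-fold lower. In the list of 8 prenylation and cycling genes, 4 rose and 1 fell (62.5% called). Gdi2, which extracts inactive Rabs from membranes, rose 1.07-fold, from 871.5 ± 10.5 to 929 ± 24.4 CPM. Rabac1, a prenylated Rab acceptor, rose 1.34-fold.

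Effectors are the proteins that active Rabs recruit. Of 21 tested effectors of early and recycling endosomes, 9 rose and 8 fell (81% called, median log2 fold change 0.01). Eea1, the tether that Rab5 recruits for early endosome fusion, fell from 128 ± 1.79 to 73.3 ± 2.76 CPM (1.75-fold lower, edgeR adjusted p = 1.56e-22). Rab11fip5, a Rab11 effector, rose from 74.96 ± 0.845 to 142 ± 0.584 CPM (log2 fold change 0.92, edgeR adjusted p = 2.33e-25), and Ehd4, an endosomal ATPase, rose 1.41-fold. Of 18 tested late endosome effectors, 5 rose and 8 fell (72.2%, median -0.06). Rubcn, which binds Rab7 and restrains autophagy, rose from 33.3 ± 1.18 to 53.2 ± 0.351 CPM. The retromer subunit Vps26a was 1.18-fold lower, and Rilpl1, a relative of the Rab7 effector RILP, was 2.04-fold lower, at 2.53 ± 0.0700 against 5.18 ± 0.619 CPM. Of 13 tested secretion effectors, 5 rose and 4 fell (69.2%, median 0.00). Myo5a, a motor for Rab27 and Rab11 cargo, fell from 449 ± 9.48 to 266 ± 1.40 CPM (1.68-fold lower, edgeR adjusted p = 1.26e-26), and Micall2, which binds Rab13 and Rab8, was 1.52-fold lower. Rims2, a Rab3 effector of vesicle docking, had 7, 4 and 8 counts in WT and 62, 69 and 53 in KO, 9.89-fold higher (edgeR adjusted p = 1.06e-13).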

How the data were processed

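RNA-seq of 3 WT and 3 Men1 KO libraries of sorted mouse cells labelled as alveolar macrophages (polyA-selected, per the labels' protocols) was used. The counter, annotation and use of strand were not given in the sources used here, and submitters' processing notes name HISAT, Bowtie2 and GRCm38.p6. Per gene and library, the authors deposited expected counts (estimated read counts, of which 8.66% to 9.19% are not whole), FPKM and TPM. A deposited normalised signal was not used. A deposited heat map table holds log2 values.

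Counts were rounded and compared with edgeR 4.0.16 in R 4.3.3 (TMM scaling, filterByExpr, quasi-likelihood test, group only, threshold 0.05). The filter kept 11817 genes and removed 4007. CPM use TMM-scaled library sizes, and 3 counts equal 0.146 to 0.153 CPM. Each SE of an edgeR log2 fold change was derived from its test. It is the size of the change divided by the square root of the F statistic. Intervals cover counting error only. Named were Men1, Rab genes past the threshold at 1.5-fold or more, the 2 of each role with the highest mean TPM, and the 3 smallest p of each regulator or effector list, of which 1 gene is not reported here; other Rab genes were described for completeness. Members and lists were chosen with earlier results of these data known. Replicate numbers did not pair libraries. Libraries of a group differed beyond counting noise (mean chi-square per gene 1.38 to 1.61). On simulated counts, 47 of 50 genes changed 1.25-fold and 50 of 50 changed 2-fold were called, with 11 of 11517 unchanged genes. The changed genes had a mean count of at least 50, and every gene had the common coefficient of variation of 1.66%. Recovery of changes at lower counts, as for Rab15, Rab36 and Rab37, or at a larger spread between mice was not simulated. Annotated exons of 20 Rab genes overlap another gene (GENCODE M21), so their reads are uncertain to that extent. Besides those named with an overlap above, they are Rab3b, Rab10, Rab11a, Rab11b, Rab20, Rab22a, Rab26, Rab33b, Rab39b and Rab40c. In addition 4 Rab pseudogenes are annotated, of which 0 matched a row of the table. DESeq2 1.42.0 and limma 3.58.1 (voom; log2(FPKM + 1), log2(FPKM + 0.1) and log2(TPM + 1)), other scalings and filters, a replicate block and leaving out each library were the alternatives.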

Additional observations from a re-analysis of the deposited data

How the results depend on the processing

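Of the 36 Rab calls, 20 passed in the same direction under every alternative that tested them, and 16 were lost under at least 1. When each library was left out, 31 to 36 of 48 tested Rab genes passed, and 65% to 66.5% of all tested genes did. With DESeq2, 32 of 53 tested Rab genes passed, against 50.6% of all tested genes. With the replicate block, 36 Rab genes passed, 21 higher and 15 lower, against 70.4% of all tested genes. Same-numbered libraries did not deviate together (correlations 0.0334, 0.0265 and 0.0213), so the numbers are not taken as pairs.

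With the biological coefficient of variation set to 0.1 and the likelihood-ratio test, 22 Rab genes passed and 7 were lower. Early endosome Rabs gave 2 higher and 2 lower, and late endosome Rabs gave 1 higher. Secretory Rabs gave 3 higher and 0 lower, ER and Golgi 2 lower and other Rabs 0 lower. With no scaling beyond total counts, secretory Rabs gave 3 higher and 2 lower. At a mean count of at least 50, 4 Rab genes changed at least 1.5-fold and 0 recycling Rabs were lower, since Rab15 was not tested. With DESeq2, 1 of the other Rabs was lower. At an adjusted p under 0.01, 3 secretory Rabs were higher and 1 of the other Rabs was lower.

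With limma on log2(FPKM + 1), 3 genes changed at least 1.5-fold and 2 secretory Rabs were lower, as with log2(FPKM + 0.1), which gave 2. With limma on log2(TPM + 1), 22 Rab genes were lower and 3 changed at least 1.5-fold; recycling gave 2 lower, late endosome 1 higher and 3 lower, secretory 4 lower and other Rabs 1 higher. Without the filter, that scale gave 22 lower, 4 at 1.5-fold, recycling 2 lower, late endosome 1 higher and 2 lower, and secretory 3 higher and 4 lower. Signs reversed on log2(TPM + 1) for Rab7 (-0.12), Rab14 (-0.12), Rab8a (-0.089), Rab10 (-0.072) and Rab12 (-0.15), and without the filter for Rab7 (-0.12), Rab14 (-0.12), Rab8a (-0.089) and Rab10 (-0.072). The median of all genes on that scale was -0.12. The cause of these changes was not tested.

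Leaving out each library in turn gave 3 to 5 higher secretory Rabs and 1 to 2 lower other Rabs. The 10 untested Rab genes had at most 10 counts in any library, so changes in them were not detectable at this depth except as given.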

Other observations

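A few Rab genes are neighbours in the genome. Rab7b and Rab29 lie on chromosome 1, 151784 bases apart with 3 protein-coding genes between them, and moved in opposite directions (log2 fold changes -1.09 and 0.31). Rab7 and Rab43 lie on chromosome 6, 186941 bases apart with 5 protein-coding genes between them, and only Rab43 passed the test. Rab31 and Rab12 lie on chromosome 17, 721759 bases apart, and only Rab31 passed.

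The authors' deposited table for a heat map lists 31 of the 58 Rab genes among 6784 genes, while the expression table holds 15824 genes. Of these 31, 29 passed edgeR's test here, and Rab17 and Rab33a were below the filter on low counts. Of all tested genes 69.2% passed. The heat map list comes from the same 6 libraries, and the share of its 6784 genes that passed was not computed. The 7 genes that passed here without being listed in the authors' deposited table were Rab9, Rab13, Rab19, Rab23, Rab28, Rab36 and Rab37, named after their values were seen.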
